A study of Mus musculus with 66 samples.

Results

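The hairpins Mir221, Mir222, Mir224 and Mir452 on the mouse X chromosome give miRNAs that are often listed as oncomiRs of hepatocellular carcinoma (HCC). Their mature products mmu-miR-221-3p, mmu-miR-221-5p, mmu-miR-222-3p, mmu-miR-222-5p, mmu-miR-224-5p and mmu-miR-452-5p were followed in mouse plasma. These 6 miRNAs were chosen by name, with earlier results of these data known. All 6 are among the 1826 miRNAs of the table of C3H mice and among the 1885 miRNAs of the table of F2 mice. In the C3H mice, 5 of the 6 passed the filter on low counts, as did 1452 miRNAs in all, and the same 5 had counts in every mouse.

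The C3H plasma came from 13 male mice of this inbred strain, 8 with HCC by histology and 5 without (non-HCC). All were bled by cardiac puncture at necropsy. The labels put all of them more than 12 months after radiation, which does not show that each mouse was irradiated. Which non-HCC mice were irradiated is not stated. According to the study's methods the HCC group joins spontaneous and radiation-induced tumors, and the labels do not tell them apart. The F2 plasma came from second-generation progeny of BALB/c females and C3H males, 15 irradiated mice of both sexes that all developed HCC, bled from the tail vein in 15 samples at 1 month, 15 at 6 months, 13 at 12 months and 10 at 18 months. The 53 F2 columns do not carry the mouse or the time in their names, so they serve here only as a set of libraries. Molecular barcodes were added during library construction, so that counts are of unique molecular indices (UMIs) and not of reads.

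A miRNA is cut from a hairpin precursor, which has a 5p and a 3p arm, and one arm usually becomes the abundant mature form. It represses mRNAs that pair with its seed, bases 2 to 8. MiR-221 and miR-222 are transcribed together and are known to target inhibitors of cell cycle progression such as Cdkn1b (p27). MiR-224 and miR-452 are transcribed from within the gene of the GABA-A receptor epsilon subunit, Gabre, and miR-224 is among the miRNAs most often raised in human liver tumors. These are statements about tissue, whereas plasma receives miRNAs from liver, blood cells and vessels alike. In bulk plasma, more releasing cells and more RNA per cell cannot be told apart.

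In GRCm38 all 4 hairpins lie on the minus strand. Mir221 is at chrX:19146294-19146388 and Mir222 at chrX:19146893-19146971, with 504 bases between them and no annotated gene overlapping either. Mir224 is at chrX:72261031-72261112 and Mir452 at chrX:72262224-72262308, with 1111 bases between them, both in an intron of Gabre on its own strand. Mature sequences from RefSeq (GRCm38.p6) were found for 5 of the 6 miRNAs. They are shown with the seed in capitals because the seed decides which miRNAs share targets. MiR-1928 and miR-452-3p are added, the first as the other miRNA in the table with the seed of miR-221-3p and the second as the other arm of Mir452.
miR-221-3p: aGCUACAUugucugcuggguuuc
miR-222-3p: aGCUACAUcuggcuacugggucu
miR-1928: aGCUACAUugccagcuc
miR-221-5p: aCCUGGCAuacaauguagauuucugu
miR-224-5p: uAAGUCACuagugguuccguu
miR-452-5p: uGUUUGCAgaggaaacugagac
miR-452-3p: uCAGUCUCaucugcaaagaggu

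MiR-221-3p and miR-222-3p share their first 8 bases and 11 of 23 positions in all, so they have 1 seed but can be told apart in sequence. MiR-1928, whose gene lies on chromosome 1, has 17 bases, the first 10 of them identical to miR-221-3p. The other 4 sequences each have a seed of their own. Because the report compares the arms of miR-221 within a mouse, its hairpin is shown with both mature arms in capitals, 5p first.
Mir221 hairpin: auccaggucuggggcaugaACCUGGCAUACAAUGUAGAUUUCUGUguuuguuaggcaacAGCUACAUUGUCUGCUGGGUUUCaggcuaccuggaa

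The depth of the C3H libraries was 9513136 to 14247488 miRNA UMIs with HCC and 10467560 to 13962539 without. The lowest value above 0 in either table is 10, so an entry of 0 is read as 9 UMIs or fewer. In the HCC group 3 pairs of libraries resembled each other more than any non-HCC pair did. The SD of the log2 count ratio over miRNAs was 0.247 between HCC mice 2 and 5, 0.261 between mice 3 and 7 and 0.338 between mice 1 and 6, against 0.427 for the closest other pair. Their differences exceeded sampling noise (chi-square per degree of freedom of 59.8 to 160.5), which cannot decide whether a pair comes from separate mice. They were kept as separate mice by their labels, with values also given after summing each pair. Levels are given as log2 of UMIs plus 1 on the scale of the synthetic spike-ins UniSP2 and UniSP4, or on the scale of TMM factors, which set the bulk of miRNAs equal between mice.

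The members spanned a wide range of abundance in C3H plasma, and the order of the 3 most abundant was the same in every mouse. MiR-221-3p was above miR-222-3p in all 8 HCC and all 5 non-HCC mice, by 5.85-fold to 12.4-fold. MiR-222-3p was above miR-224-5p in the same 13 mice, by 8.33-fold to 99.9-fold. Below these the order was less fixed. MiR-224-5p was above miR-221-5p in 8 HCC and 4 non-HCC mice, with non-HCC mouse 5 the exception. MiR-221-5p was above miR-222-5p in 6 HCC and 5 non-HCC mice, with HCC mice 1 and 6 the exceptions. Within a mouse these ratios ran from 0.465 to 9.46 and from 0.376 to 3.76, on both sides of 1, and no test of them was made.

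No member was higher or lower in HCC mice beyond the spread between mice. By edgeR's quasi-likelihood test on the spike-in scale, 0 of the 5 members tested passed an adjusted p of 0.05, while 7.51% of all 1452 miRNAs did, each of them higher in HCC. The members' median log2 fold change was 0.59, against 0.78 over all miRNAs tested. With TMM factors again 0 of 5 passed, against 9.57% of all miRNAs (107 higher, 32 lower), and the members' median was -0.03 against 0.17. At an unadjusted p under 0.05 the edgeR test also named 0 of the 5, against 19.5% of all miRNAs on the spike-in scale and 22% with TMM factors. After adjustment 0 of 5 were called by limma, against 3.03% of all miRNAs. DESeq2 too called 0 of 5, against 15.3% where it estimated size factors itself and 12.6% where these came from the spike-ins.

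For mmu-miR-221-3p, the main arm of its hairpin, the counts were 58185, 92634, 103443, 134144, 86790, 55233, 124098 and 84662 UMIs in HCC mice 1 to 8. In non-HCC mice 1 to 5 it had 92703, 107529, 69106, 100984 and 109409 UMIs. The groups overlapped, with HCC mice holding both the lowest and the highest counts. On the spike-in scale the HCC mice had a log2 level of 16.62 ± 0.99 (SD, n = 8) and the non-HCC mice one of 16.23 ± 0.56 (n = 5). EdgeR gave it a log2 fold change of 0.59 (SE 0.58, adjusted p = 0.680), and the exact two-sided permutation test of the levels over all splits of the mice gave p = 0.430. With TMM factors the fold change was -0.029, the opposite sign. HCC mice 2 and 5, the highest on the spike-in scale at 17.95 and 17.93, also had the fewest UniSP2 UMIs of all mice, 175009 and 165794, and the part of this in their levels was not tested.

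For mmu-miR-222-3p the counts were 4696, 10650, 15097, 13238, 9622, 4581, 19008 and 10985 UMIs in HCC mice 1 to 8, and 14979, 17367, 11800, 17271 and 17778 in non-HCC mice 1 to 5. In counts HCC mice 1 and 6 were far below every non-HCC mouse. HCC mice 2, 5 and 8 were also below all of them, and HCC mouse 7 was above them. Scaled by the spike-ins, 4 HCC mice were below and 2 above all non-HCC mice. On the spike-in scale the log2 levels were 13.46 ± 0.99 (SD, n = 8) in HCC and 13.64 ± 0.55 (n = 5) in non-HCC mice, with a log2 fold change of 0.03 (SE 0.57, edgeR adjusted p = 0.994). The fit on counts and the mean of log2 levels thus differed in sign. With TMM factors the log2 fold change was -0.49 (SE 0.32, edgeR adjusted p = 0.433), and 6 of 8 HCC mice lay below all non-HCC mice (exact permutation p = 0.0769, adjusted over all miRNAs 0.250). The edgeR fold change therefore turned with the scale, and neither value passed the test. The difference of mean log2 levels was negative on both, -0.18 on the spike-in scale and -0.64 with TMM factors.

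For mmu-miR-224-5p the counts were 244 to 793 UMIs with a median of 570 among HCC mice, and 721, 708, 300, 772 and 178 in non-HCC mice 1 to 5. In counts the non-HCC mice alone spanned a range as broad as the HCC mice. On the spike-in scale they did not, with log2 levels of 7.83 to 9.28 (SD 0.66, n = 5). HCC mice ran from 7.06 to 10.89 on that scale (SD 1.48, n = 8). HCC mice 3 and 7 were the lowest of their group, at 244 and 276 UMIs. The log2 fold change was 1.03 on the spike-in scale (SE 0.67, edgeR adjusted p = 0.459) and 0.05 with TMM factors (SE 0.35, edgeR adjusted p = 0.989). On the spike-in scale 4 HCC mice were above and 2 below all non-HCC mice. The study itself reported a significant rise of miR-224-5p with HCC in its C3H and F2 cohorts, unlike the result here. For its main marker miRNAs it showed C3H HCC mice by tumor origin. That split could not be made here, and its part in the difference was not tested.

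The minor arms were scarce. For mmu-miR-221-5p the counts were 59 to 346 UMIs with a median of 185 among HCC mice, and 341, 351, 162, 327 and 383 UMIs in non-HCC mice 1 to 5. Its log2 fold change was 0.28 (SE 0.73, edgeR adjusted p = 0.929) on the spike-in scale and -0.64 (SE 0.42, edgeR adjusted p = 0.428) with TMM factors. Its mean log2 level on the spike-in scale was lower in HCC mice, 7.51 against 7.94, opposite in sign to the fit on counts. With TMM factors 5 HCC mice were below and 2 were above all non-HCC mice. For mmu-miR-222-5p they were 58 to 165 UMIs with a median of 117 among HCC mice, and 93, 130, 81, 97 and 107 in non-HCC mice 1 to 5. Its log2 fold change was 1.04 (SE 0.65, edgeR adjusted p = 0.433) on the spike-in scale and 0.23 (SE 0.28, edgeR adjusted p = 0.809) with TMM factors.

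The last member, mmu-miR-452-5p, was listed in 1 of the 13 C3H mice, non-HCC mouse 1, with 15 UMIs, and at 0 in the other mice, so it was not tested. The other arm, miR-452-3p, was listed in 5 of 8 HCC mice, at 10 to 25 UMIs, and in 2 of 5 non-HCC mice, at 10 UMIs each. Its log2 fold change was 2.05 with an SE of 1.67 (edgeR adjusted p = 0.607). MiR-224-3p was listed in HCC mouse 4 with 22 UMIs and in non-HCC mouse 2 with 12. MiR-1928 was listed in 6 of 8 HCC mice, at 10 to 37 UMIs, and in non-HCC mouse 5 at 17 UMIs, with a log2 fold change of 1.92 (SE 1.64, edgeR adjusted p = 0.632). Its 17 bases are close to miR-221-3p, which had at least 55233 UMIs in each mouse, so its counts are uncertain where reads of both were assigned.

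**Figure D1:**
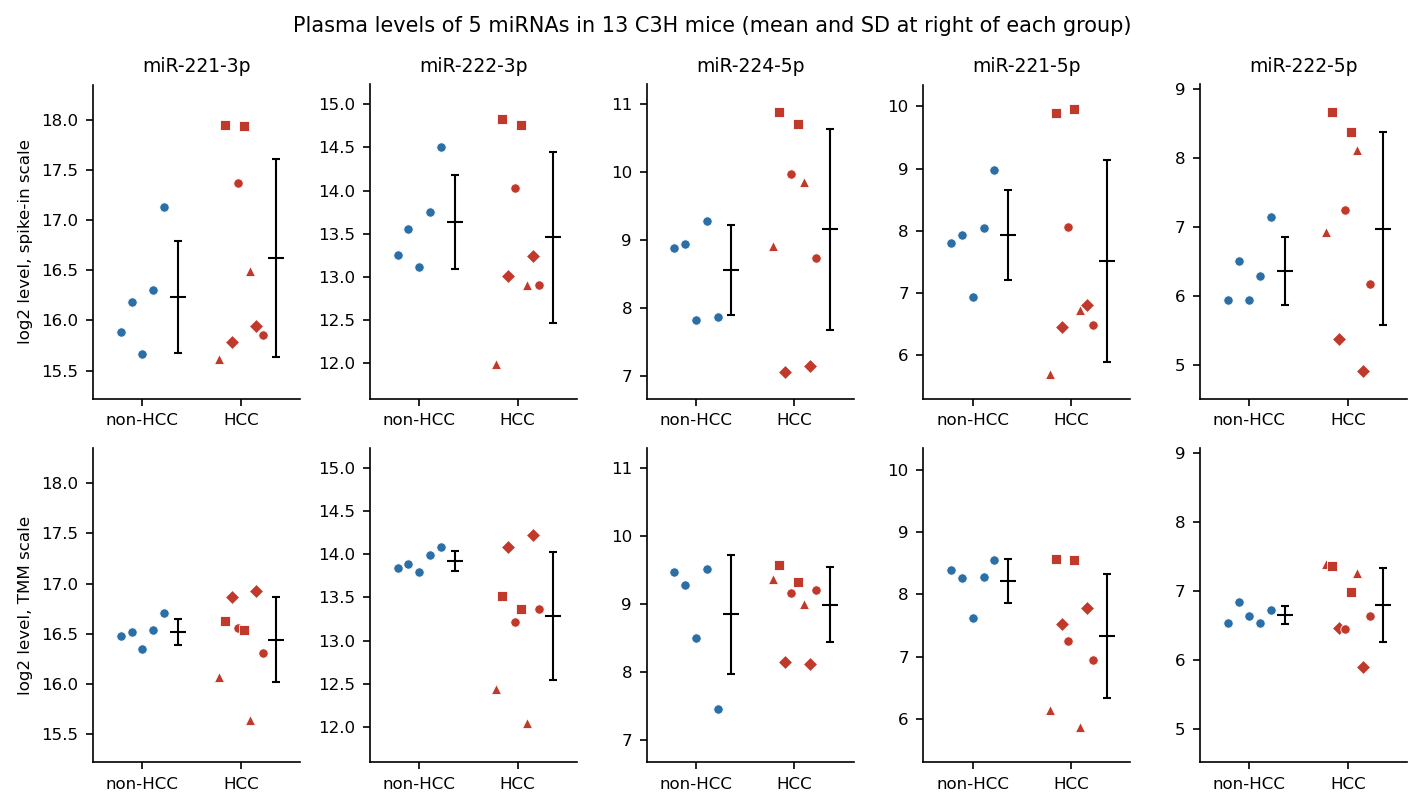
Log2 levels (UMIs plus 1) of the 5 tested miRNAs in non-HCC (blue) and HCC (red) mice, on the spike-in scale in the upper row and with TMM factors in the lower row; bars are mean and SD, and triangles, squares and diamonds mark HCC mice 1 and 6, 2 and 5, and 3 and 7. The groups overlap in every panel, and with TMM factors miR-222-3p is lower than every non-HCC mouse in 6 of 8 HCC mice.

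None of the 5 had levels on the spike-in scale that were separate between the groups, while 1.52% of all 1452 miRNAs did. A ratio of 2 members within a mouse does not depend on any scale, and it was used to ask whether neighbours on the chromosome and arms of a hairpin keep their proportion. Of 6 planned ratios, the 2 with miR-452-5p could not be formed, and 4 were compared by exact two-sided permutation over all splits of the mice, with p-values adjusted over the 4.

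The ratio of miR-221-3p to miR-222-3p was higher in every HCC mouse than in any non-HCC mouse. It was 12.4, 8.70, 6.85, 10.1, 9.02, 12.1, 6.53 and 7.71 in HCC mice 1 to 8. In non-HCC mice 1 to 5 it was 6.19, 6.19, 5.86, 5.85 and 6.15. The non-HCC mice were nearly identical to each other, while HCC mice ran from just above them, in mice 3 and 7, to 12.4 and 12.1 in mice 1 and 6. The log2 ratio was 3.16 ± 0.35 (SD, n = 8) in HCC and 2.60 ± 0.04 (n = 5) in non-HCC mice. The log2 difference was 0.56, or 1.48-fold (two-sided exact permutation p = 0.00544, adjusted p = 0.0218). With each pair of similar HCC libraries summed, the difference was 0.56 (exact permutation p = 0.00794, 5 against 5), and 5 of 5 HCC values lay above all non-HCC values. Both miRNAs have the same seed and come from neighbouring hairpins, yet their proportion in plasma differed between the groups while neither level did beyond the spread between mice.

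Such a separation was not peculiar to this pair. Among 698 other miRNAs with UMIs in all 13 mice, the ratio to miR-222-3p was higher in HCC mice without overlap for 6.02%. The ratio of miR-221-3p to another miRNA was higher without overlap for 6.59% of 698. Each share includes the pair of miR-221-3p and miR-222-3p itself. Ratios that were lower in HCC mice without overlap were not counted, although the test of the ratio was two-sided.

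The minor arm of miR-221 took a smaller share of its hairpin's UMIs in 6 of 8 HCC mice than in any non-HCC mouse. MiR-221-5p made up 0.101% of the miR-221 UMIs in HCC mouse 1 (59 of 58244, 95% Wilson interval 0.0786% to 0.131%) and 0.112% in HCC mouse 6. It was 0.154%, 0.157%, 0.175% and 0.151% in HCC mice 3, 4, 7 and 8, against 0.234% to 0.367% in non-HCC mice. HCC mice 2 and 5 went the other way, at 0.372% and 0.394%, just above all non-HCC mice. The log2 ratio of 5p to 3p was -9.11 ± 0.72 (SD, n = 8) in HCC and -8.30 ± 0.25 (n = 5) in non-HCC mice. The difference of -0.81 had an exact permutation p = 0.0350 and did not pass after adjustment over the 4 ratios (adjusted p = 0.0699). With HCC mouse 2 or mouse 5 left out the adjusted p was 0.0278 or 0.0253, so the call changes with either of these similar libraries.

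The miR-222 arms did not differ between the groups beyond their spread. MiR-222-5p made up 2.90% of the miR-222 UMIs in HCC mouse 1 (140 of 4836, 95% Wilson interval 2.46% to 3.41%) and 3.48% in HCC mouse 6. In HCC mice 2, 4, 5 and 8 it made up 0.898% to 1.37%, and in mice 3 and 7 0.494% and 0.304%. In non-HCC mice it stayed between 0.559% and 0.743%. So 6 HCC mice were above and 2 below all non-HCC mice, and the log2 ratio of 5p to 3p differed by 0.79 (exact permutation p = 0.177, adjusted p = 0.236). HCC mice 1 and 6 thus had the lowest 5p share for miR-221 and the highest for miR-222. The intervals cover counting error only.

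**Figure D2:**
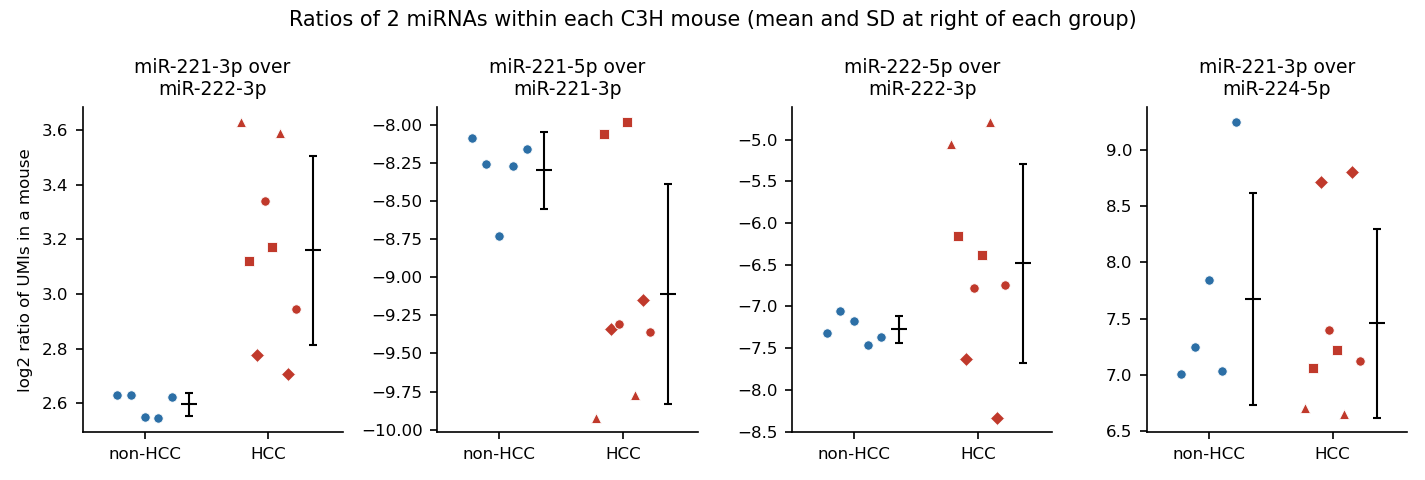
Log2 ratio of UMIs of 2 miRNAs within each mouse for the 4 ratios compared, non-HCC in blue and HCC in red, with mean and SD beside each group and the similar HCC libraries sharing a symbol as in the plot of levels. In the first panel all 8 HCC mice lie above the 5 non-HCC mice, which fall between 2.55 and 2.63.

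The ratio of miR-221-3p to miR-224-5p, which links both loci, was 100.2 to 448 in HCC mice with a median of 144, and 128 to 611 in non-HCC mice with a median of 152. The groups overlapped, and the log2 ratio differed by -0.22 (exact permutation p = 0.659, adjusted p = 0.659).

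**Figure D3:**
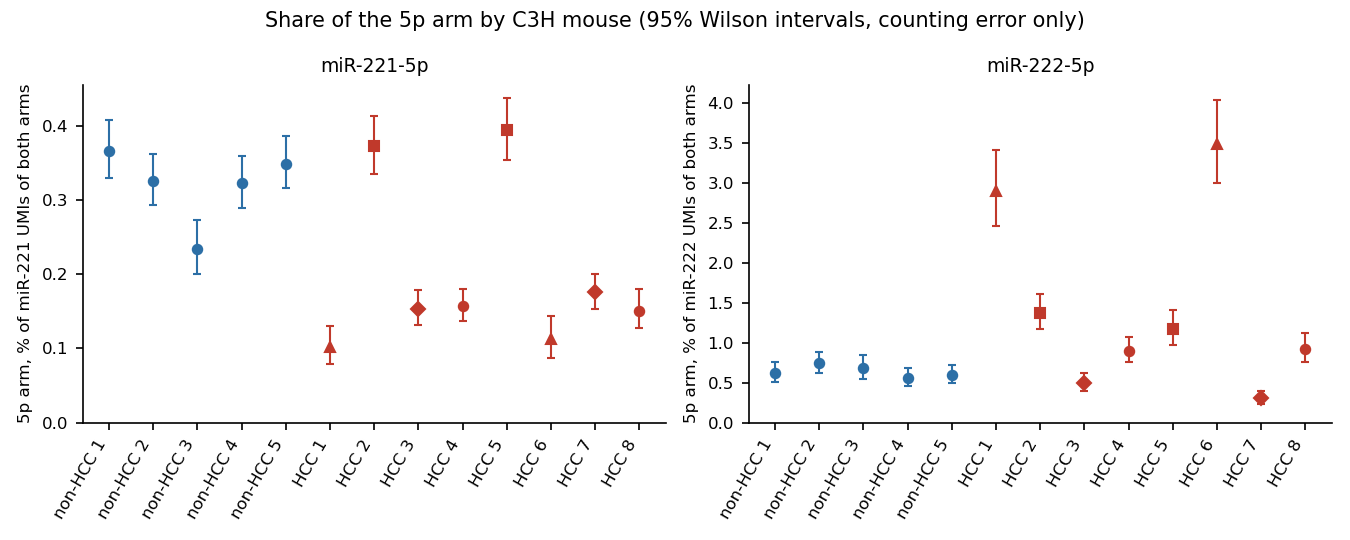
Share of the 5p arm in the UMIs of both arms, in percent, for miR-221 (left) and miR-222 (right) in each mouse, with 95% Wilson intervals and symbols as in the plot of levels. For miR-221 6 HCC mice lie below all non-HCC mice, and for miR-222 HCC mice 1 and 6 stand far above the other mice, at 2.90% and 3.48%.

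Other miRNAs moved with the HCC mice, and their values belong beside the ratio. Of 5 liver miRNAs 4 were higher in HCC on either scale, and the log2 of their summed level was 17.85 to 23.79 in HCC against 16.09 to 17.54 in non-HCC mice on the spike-in scale. MiR-122-5p, the dominant miRNA of hepatocytes, took 40.98% and 42.70% of miRNA UMIs in HCC mice 1 and 6, which had the highest ratios of miR-221-3p to miR-222-3p. It took 2.20% and 2.39% in mice 3 and 7, which had the lowest ratios of the HCC group. Both of these are pairs of similar libraries. In HCC mice 2, 4, 5 and 8 it took 29.2%, 9.53%, 28.3% and 17.8%, beside ratios of 8.70, 10.1, 9.02 and 7.71. Among these mice, mouse 4 thus had the lowest share and the highest ratio. MiR-122-5p took 0.180% to 0.424% in non-HCC mice. The part of liver miRNAs in the ratio was not tested.

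Blood cell miRNAs were compared in the same way. Of 6 red cell miRNAs 0 passed the edgeR test on either scale, though 5 of 8 HCC mice lay below all non-HCC mice for each of miR-451a, miR-144-3p and miR-144-5p on the spike-in scale. The log2 summed level of the red cell list was 19.38 to 22.95 in HCC and 21.40 to 22.71 in non-HCC mice on the spike-in scale. With TMM factors it was 19.20 to 22.18 (mean 21.07) in HCC and 21.99 to 22.29 (mean 22.16) in non-HCC mice, lower on average in HCC mice as was miR-222-3p on that scale. Of 5 platelet and leukocyte miRNAs 0 passed on the spike-in scale and 4 were lower in HCC with TMM factors. With TMM factors the log2 sum of that list was 16.86 to 18.16 in HCC against 18.24 to 19.35 in non-HCC mice, without overlap. On the spike-in scale it was 16.41 to 19.01 against 17.65 to 19.78, with overlap. Of 5 muscle miRNAs and of 4 endothelial and stromal miRNAs 0 passed on either scale. The part of these cell types in the members' values was not tested.

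As a frame for the members, 2 lists of other miRNAs named in the HCC literature were counted. Of 15 miRNAs reported raised in human HCC tissue, 3 were higher in HCC plasma on the spike-in scale, miR-182-5p (log2 fold change 4.13, SE 0.94, edgeR adjusted p = 0.0116), miR-183-5p (3.79, SE 0.94, adjusted p = 0.0173) and miR-96-5p (3.12, SE 0.89, adjusted p = 0.0327), which come from 1 cluster. Of 15 reported lowered in human HCC tissue, 3 were also higher in HCC plasma, miR-122-5p (7.34), miR-148a-3p (3.80) and miR-29c-3p (3.08). With TMM factors each list had 3 higher and 1 lower. Called over all miRNAs were 7.51% on the spike-in scale and 9.57% with TMM factors. The median log2 fold change was 0.24 for the raised and 0.81 for the lowered list on the spike-in scale, against 0.78 over all miRNAs. With TMM factors it was -0.38 and -0.0098, against 0.17. The lists were not tested against each other.

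MiRNAs with levels most like each member's were sought among 699 miRNAs with UMIs in all 13 mice, by Pearson's r of log2 levels over the mice, as a description only, since the levels share their library scale. On the spike-in scale miR-221-3p was most like miR-1960 (r = 0.984), miR-770-5p and miR-30b-5p. MiR-222-3p was most like let-7i-3p (0.988), miR-5123 and miR-195a-5p, and with TMM factors most like miR-16-2-3p (0.987), miR-25-3p and miR-16-5p. MiR-16-5p is on the red cell list. With TMM factors miR-221-3p was most like let-7i-3p (0.902), miR-301b-3p and miR-5123. Its chromosomal neighbour miR-222-3p ranked 103 for miR-221-3p on the spike-in scale (r = 0.891) and 5 with TMM factors (r = 0.885).

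MiR-221-5p was most like miR-362-5p (0.986), miR-17-3p and miR-30e-5p, and with TMM factors like miR-106b-3p (0.967), miR-17-3p and miR-186-5p. MiR-224-5p was most like miR-184-3p (0.964), miR-195a-3p and the joined entry of miR-199a-3p and miR-199b-3p, and with TMM factors like miR-195a-3p (0.831), miR-184-3p and miR-125b-1-3p. MiR-222-5p was most like miR-6915-3p (0.980), miR-28a-5p and miR-194-1-3p, and with TMM factors like miR-574-5p (0.878), miR-28a-5p and miR-7219-3p. With TMM factors the arms of Mir222 ran against each other (r = -0.70) and those of Mir221 ran together (r = 0.730). On the spike-in scale both ran together, with r = 0.530 and 0.885, so the sign for Mir222 turned with the scale. MiR-224-5p had r = -0.39 with miR-221-3p and -0.41 with miR-222-3p on that scale, against 0.722 and 0.477 on the spike-in scale.

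The F2 columns were shallower, with 205194 to 3020311 miRNA UMIs and a median of 846338. MiR-221-3p and miR-222-3p were listed in all 53 columns, at 129 to 4433 UMIs (median 962) and 12 to 772 UMIs (median 183). MiR-224-5p was listed in 52 of 53 columns, with a median of 46 UMIs. MiR-221-5p was listed in 46, miR-222-5p in 40 and miR-452-5p in 11 columns. Several columns come from 1 mouse and which ones is not known, so the relations among columns are given as a description without p.

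MiR-221-3p and miR-222-3p ran together closely over the 53 columns. Pearson's r of their log2 levels was 0.955 on the spike-in scale and 0.795 per total miRNA UMIs. Among 306 other miRNAs listed in every column, miR-221-3p ranked first in likeness to miR-222-3p on both scales. In the other direction miR-222-3p ranked 3 and 2 for miR-221-3p, where miR-320-3p was first (0.963 and 0.820). The median r with the 306 miRNAs was 0.729 for miR-221-3p on the spike-in scale and 0.125 per total UMIs, so both r values stand above this median on their scale.

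MiR-224-5p, from the other locus, had r = 0.824 with miR-221-3p and 0.846 with miR-222-3p on the spike-in scale, which became 0.156 and 0.205 per total UMIs over 52 columns. The 5p arms of miR-221 and miR-222 had r = 0.852 and 0.712 on these scales over the 35 columns that list both. Per total UMIs each 5p arm had a higher r with the other 5p arm than with its own 3p arm. The r was 0.254 between the arms of miR-221 over 46 columns and 0.244 between those of miR-222 over 40 columns. Counts of the 5p arms lay close to the lowest listed value of 10. Where listed, their medians were 18 UMIs for miR-221-5p and 15.5 UMIs for miR-222-5p. Spearman's rho of their counts with total miRNA UMIs was -0.0093 and 0.426 over all 53 columns. The part of this minimum, and of the shared total, in their likeness was not tested.

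The ratio of miR-221-3p to miR-222-3p in the F2 columns had a median of 5.04 and ran from 3.23 to 10.8. In 13 of 53 columns it was above all C3H non-HCC mice, while the median lay below the lowest of those mice, at 5.85. Among the 47 columns with at least 100 UMIs of miR-222-3p the range was 3.23 to 9.89, and 10 columns were above. The tables come from other blood sites, strains and depths, so these counts only place the values side by side and no test between the tables was made.

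**Figure D4:**
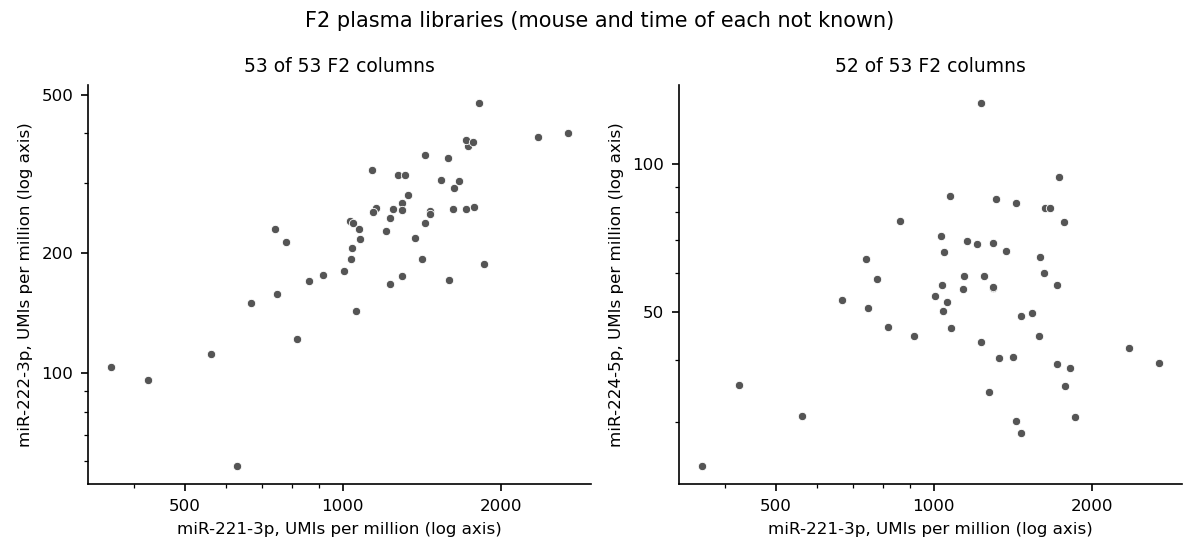
Share of the library's miRNA UMIs (scaled as on the axes, log scale) in the F2 columns, miR-222-3p (left) and miR-224-5p (right) against miR-221-3p, 1 point per column that lists both. MiR-222-3p follows miR-221-3p over 53 columns (r = 0.795 of log2 values) and miR-224-5p hardly does over 52 (r = 0.156).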

How the data were processed

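Small RNA was sequenced from plasma of 13 C3H mice and in 53 F2 libraries. Per the labels and methods, the authors aligned reads to GRCm38 with Bowtie2, annotated them by miRBase 20, merged reads with one barcode and deposited the resulting UMI counts, not normalized, with those of both spike-ins. Mice were assigned by the mouse name in the labels, and F2 columns only to the F2 set. The miRNAs and lists were chosen with earlier results of these data known.

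HCC and non-HCC mice were compared with edgeR 4.0.16 in R 4.3.3 (quasi-likelihood test, Benjamini-Hochberg adjustment over 1452 miRNAs, threshold 0.05), with the mean of UniSP2 and UniSP4 as library scale, for miRNAs that reached 5 UMIs in 5 or more mice. That mean is in effect UniSP2, which had a median of 465848 UMIs in HCC mice against 481.5 for UniSP4. Standard errors were derived from the log2 fold change and the square root of its F statistic. Levels are log2 of UMIs plus 1 over the spike-in mean, relative to its geometric mean over mice, or over TMM-scaled totals. Exact permutation tests used numpy 2.4.6 and pandas 2.3.3 (Python 3.11.15), and intervals used scipy 1.17.1. Both tests were checked on simulated data.

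The miRNAs named are the 6 members, other arms, miRNAs sharing a seed, the 3 most alike per member and scale, and the 3 with the smallest p of the tissue lists. The red cell miRNAs named singly and miR-320-3p were chosen after their values were seen. The lists were red cells (miR-16-5p, both arms of miR-144, miR-363-3p, miR-451a, miR-486a-5p), platelets and leukocytes (miR-126a-3p, both arms of miR-142a, miR-150-5p, miR-223-3p), liver (miR-101b-3p, both arms of miR-122, miR-194-5p, miR-192-5p), muscle (miR-499-5p, miR-208b-3p, miR-206-3p, miR-133a-3p, miR-1a-3p) and endothelium and stroma (miR-126a-3p, miR-126a-5p, miR-143-3p, miR-145a-5p). Alternatives were TMM factors, total UMIs, each spike-in alone, limma 3.58.1, DESeq2 1.42.0, other filters and pseudocounts, leaving out each mouse, and a block for the replicate number. Summing similar libraries was chosen after seeing the data. Hairpins were placed by GENCODE M21 (GRCm38).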

Additional observations from a re-analysis of the deposited data

Results flagged for a closer look

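The log2 ratio of miR-221-5p to miR-221-3p in non-HCC mouse 3 was -8.73, far from the other 4 non-HCC mice, which lay between -8.27 and -8.08. It was the only one of 18 groups of values searched in which a mouse stood apart by Dixon's criterion, which chance meets in about 1 of 20 groups. The mouse had 162 UMIs of miR-221-5p and 69106 of miR-221-3p, and its value is still above those of 6 of the 8 HCC mice.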

How the results depend on the processing

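No alternative called a member. The log2 fold change reversed with TMM factors for miR-221-3p (-0.029), miR-221-5p (-0.64) and miR-222-3p (-0.49), and with total miRNA UMIs (-0.66 and -0.40), limma (-0.43 and -0.18) and DESeq2's own size factors (-0.60 and -0.44) for miR-221-5p and miR-222-3p. With similar HCC libraries summed it was -0.017 for miR-222-3p, and with TMM factors besides -0.62 for miR-221-5p and -0.44 for miR-222-3p. The difference of log2 levels of miR-221-3p was -0.076 with TMM factors. The cause was not tested. TMM factors move the median of all miRNAs from 0.78 to 0.17, but the reversals with limma arose on the spike-in scale itself. The number of miRNAs called was 109, and 44 with limma, 222 with DESeq2's own and 183 with DESeq2 on spike-in size factors. With total miRNA UMIs 123 were higher and 32 lower, and with DESeq2's own factors 173 and 49. Leaving out each mouse gave 44 to 157 calls, with 44, 47, 47 and 53 without non-HCC mice 1, 2, 3 and 4 and 65 without HCC mouse 2.

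With each mouse left out the fold change ran from 0.36 to 0.89 for miR-221-3p, -0.20 to 0.63 for miR-221-5p, -0.22 to 0.32 for miR-222-3p, 0.75 to 1.29 for miR-222-5p and 0.74 to 1.23 for miR-224-5p. The difference of log2 levels ran from 0.19 to 0.61 for miR-221-3p, -0.78 to -0.17 for miR-221-5p, -0.38 to 0.037 for miR-222-3p, 0.37 to 0.90 for miR-222-5p and 0.35 to 0.90 for miR-224-5p. The difference of log2 ratios ran from 0.50 to 0.63 for miR-221-3p over miR-222-3p (adjusted exact permutation p from 0.0152 to 0.0404), -0.97 to -0.70 for miR-221-5p over miR-221-3p, 0.55 to 1.05 for miR-222-5p over miR-222-3p and -0.41 to 0.18 for miR-221-3p over miR-224-5p. The last turned without non-HCC mouse 5. Other pseudocounts, 0 entries set to 9 and summed libraries left each ratio on its side of the threshold. Per total UMIs the F2 correlations were 0.795, 0.156, 0.205 and 0.712, as in the report.

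Same-numbered mice did not deviate together (r from -0.131 to 0.0707), so the numbers do not pair them. The replicate block gave 145 calls and log2 fold changes of 0.70, 0.10, 0.09, 0.97 and 0.94 for miR-221-3p, miR-221-5p, miR-222-3p, miR-222-5p and miR-224-5p, none called. Correlations over HCC mice were not run, because their libraries fall into similar pairs, nor were the 2 ratios with miR-452-5p.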

Other observations

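In the F2 columns the relation of a miRNA's counts to the depth of the library differed widely among the arms. Spearman's rho between UMIs and total miRNA UMIs over the 53 columns was 0.692 for miR-221-3p, 0.726 for miR-222-3p and 0.820 for miR-224-5p. It was 0.426 for the scarce miR-222-5p, with a median of 14 UMIs, and -0.0093 for miR-221-5p, 0.0845 for miR-452-3p and -0.0395 for miR-452-5p. The highest count of miR-221-5p, 98 UMIs, came from a column with 362269 miRNA UMIs. MiR-452-3p was listed in 42 of 53 F2 columns with a median of 14 UMIs, and in 7 of the 13 C3H libraries, which held at least 9513136 miRNA UMIs each. These values were not tested, since columns share mice.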
